A study of Neurospora crassa OR74A and Aspergillus nidulans FGSC A4 with 22 samples.

Results

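β-Glucosidases cut cellobiose and short cellodextrins, the soluble products of cellulases, into glucose. The data concern 10 genes that encode members of the glycoside hydrolase (GH) families GH1 and GH3, 5 in *Neurospora crassa* and 5 in *Aspergillus nidulans*. They were chosen by locus name from tables that hold 20178 genes in all, of which 9582 are *N. crassa* genes and 10596 belong to *A. nidulans*. The *N. crassa* genes are *gh1-1* (NCU00130), *gh3-3* (NCU08755), *gh3-4* (NCU04952), *gh3-6* (NCU07487) and *gh3-1* (NCU03641). The *A. nidulans* genes are AN10124, which the study annotates as a β-glycosidase of family GH1, and the GH3 genes *bglA* (AN4102), *bglB* (AN0712), *bglI* (AN2227) and *bglL* (AN2828). The choice did not use measured values, but it was made with earlier results of these data known.

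Cellulose is cut by extracellular endoglucanases and cellobiohydrolases, and the cellobiose they release can be cleaved outside the hypha by secreted β-glucosidases. It can also be taken up by cellodextrin transporters and cleaved inside the cell. In *N. crassa*, cellobiose is known as an inducer of cellulase genes, and strains that lack several β-glucosidase genes respond to it more strongly. These enzymes thus supply glucose and also remove a signal.

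RNA was sequenced from hyphae of wild-type *N. crassa* (OR74A) and wild-type *A. nidulans* (FGSC 4A). Cultures had grown in liquid medium under constant light for 16 h, *N. crassa* in 2% sucrose at 25°C and *A. nidulans* in 1% glucose at 37°C. They were washed and moved to medium with 2% Avicel, a microcrystalline cellulose powder, or to medium without a carbon source, and were harvested after 4 h (*N. crassa*) or 6 h (*A. nidulans*). Each of these 4 groups had 3 libraries, and no group shared a library with another. The remaining 10 of the 22 samples, from strains with altered *clr-2* or *clrB*, were not analysed here. Species, temperature, time after the shift and the sugar before it differ together, so their parts in any difference between the species cannot be told apart.

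For each gene the tables give 1 mean per group, in read counts divided by size factors (normalized counts), and this value is called the authors' mean. A log2 fold is the binary logarithm of the authors' mean on Avicel over that on no carbon. Normalized counts also grow with transcript length and the species were scaled separately, so levels are compared here for a gene between conditions, not between genes or species. Ranks and percentiles place a gene among all genes of its own table without a correction for length, and are given to show how far its place moved between conditions.

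The libraries could partly be taken apart, because low means are built from whole reads that are worth a fixed amount in each library. By this relation the *N. crassa* libraries held an estimated 9.67 to 112 M counted reads and the *A. nidulans* libraries 37.7 to 48.3 M. The shallowest was library 3 of *N. crassa* on Avicel, where libraries are numbered from the deepest. Over 335 genes with a mean between 50 and 100, this library differed from the other Avicel libraries by a median of 0.64 and 0.72 on the log2 scale, against 0.23 between those, and in the other groups pairs of libraries differed by 0.26 to 0.51. A read in library 3 was worth 5.93 normalized counts, so counting noise is part of its differences. No pair of libraries agreed within counting noise. Set against that noise (chi-square per gene, where 1 is expected), the pairs with library 3 had 8.77 and 9.30. The other *N. crassa* pair on Avicel had 1.83, and the *N. crassa* pairs on no carbon had 9.70 to 27.8. For the same spread this measure grows with the number of reads. The deeper no carbon libraries are thus not shown by it to differ more than library 3 does. The median standard deviation (SD) of log2 values between the 3 libraries of a group was 0.43 for *N. crassa* on Avicel, 0.38 on no carbon, 0.30 for *A. nidulans* on Avicel and 0.35 on no carbon. A gene with that spread would have a standard error (SE) of its log2 fold of 0.33 if it came from *N. crassa* and of 0.27 if from *A. nidulans*. These figures are called the typical SE. They give the size of library differences at low counts and are not a test of any single gene. The upper quartile of the SD was 0.81 for *N. crassa* on Avicel, so single genes can have a larger SE. Where an authors' mean was too high to be taken apart, no replicate error of that gene and no p-value could be had.

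In *N. crassa* 4 of the 5 genes were 4-fold or more higher on Avicel than on no carbon, the fold limit used in the study's methods. In *A. nidulans* 2 of the 5 were. Across the tables, 3.00% of the 9389 *N. crassa* genes with both means above 0 lay at or beyond this fold, and 3.38% of the 10461 such genes of *A. nidulans*. None of the 10 genes was 4-fold lower on Avicel, where 1.08% of *N. crassa* and 0.220% of *A. nidulans* genes lay. The same 4 and 2 members also passed limits of 2-fold (8.29% and 10.6% of all genes) and 8-fold (1.54% and 1.53%). The median log2 fold was 4.54 over the *N. crassa* members and 0.74 over the *A. nidulans* members, against -0.02 and -0.01 over all genes. Each of the 6 genes past the limit lay at least 10 typical SE from a log2 fold of 0. None of these had a replicate error of its own on Avicel. Of the other 4 genes, 3 lay within 1 typical SE as deposited. When both groups of a species were scaled to the same total (equal sums), *gh3-1* at -0.50 and *bglB* at -0.30 were beyond 1 typical SE as well, which left *bglA*.

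**Figure D1:**
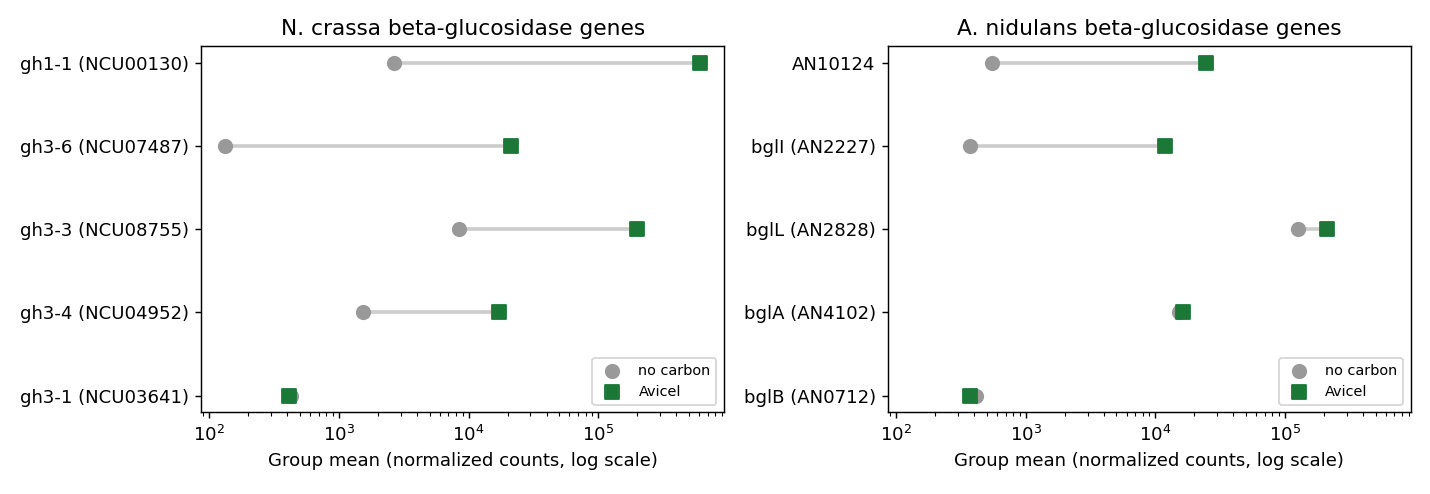
Authors' means of the 10 β-glucosidase genes (horizontal axis, normalized counts, log scale) on no carbon (grey circles) and Avicel (green squares), with *N. crassa* on the left and *A. nidulans* on the right, ordered by fold. In *N. crassa* the Avicel means of 4 genes lie far to the right and those of *gh3-1* almost coincide (425 and 412), while in *A. nidulans* AN10124 and *bglI* are far apart and *bglL*, *bglA* and *bglB* lie within 2-fold.

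The GH1 genes had the largest fold of the members in each species. *gh1-1* encodes the intracellular β-glucosidase that, with the cellodextrin transporters, makes up the route for cellobiose into the cell. Its authors' mean was 2676 on no carbon and 610555 on Avicel, a 228-fold difference (log2 fold 7.83). That took it from rank 3272 of the table to rank 5, and from 0.00640% to 1.06% of all normalized counts. Behind these means stood an estimated 16649 and 1226576 reads, if the 3 libraries of a group had equal normalized counts. On that assumption the counting error was 0.851% of the no carbon mean and 0.121% of the Avicel mean.

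The ortholog of *gh1-1* in the study's pairing, AN10124, had an authors' mean of 546 on no carbon and 24692 on Avicel, 45.2-fold higher (log2 fold 5.50). It moved from rank 6767 to rank 277 of its table. The no carbon mean could be taken apart in 2 ways. One set of whole reads gave 596, 503 and 540 normalized counts in the libraries, and the other gave 145, 733 and 761. All these values lay far below the Avicel mean. The log2 folds of the GH1 pair differed by 2.34, with the larger one in *N. crassa*, and by 2.02 with equal sums. A difference between 2 genes of typical spread, 1 in each species, would have an SE of 0.42.

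Among the GH3 genes, the study's gene lists predict secretion for *gh3-3*, *gh3-4*, *bglA* and *bglL*. *gh3-3* had an authors' mean of 8508 on no carbon and 197956 on Avicel (23.3-fold, log2 fold 4.54), and rank 1069 became rank 27. Its ortholog *bglA* had 15102 on no carbon and 16299 on Avicel, a log2 fold of 0.11 that became -0.03 with equal sums. *bglA* kept its place in its table, at percentile 95.5 on no carbon and 95.3 on Avicel, and *gh3-3* moved from percentile 88.8 to 99.7. The log2 folds of this pair differed by 4.43.

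For the second secreted pair, *gh3-4* had an authors' mean of 1542 on no carbon and 17279 on Avicel, 11.2-fold higher (log2 fold 3.49), the smallest of the 4 folds past the limit in *N. crassa*. Its ortholog *bglL* had an authors' mean of 126497 on no carbon and 211384 on Avicel, and rank 20 of its table became rank 13. The log2 fold of *bglL* was 0.74, or 2.79 typical SE, and 0.60 with equal sums. In the *A. nidulans* table it stood at percentile 84.6 of all log2 folds, and 10.6% of genes were at least 2-fold higher on Avicel, a fold that *bglL* did not reach. The log2 folds of *gh3-4* and *bglL* differed by 2.75. In normalized counts, the difference between its means was 84887.

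*gh3-6*, annotated by the study as a periplasmic β-glucosidase, had an authors' mean of 132 on no carbon and 21327 on Avicel, 161-fold higher (log2 fold 7.33). It moved from percentile 20.0 to percentile 95.7 of its table. The no carbon mean again allowed 2 sets of whole reads. In one the libraries had 144, 134 and 120 normalized counts, and in the other 5.21, 199 and 194. Libraries that differed more than 30-fold were rare in this group, with 0.915% of the 328 genes with a mean between 50 and 100, so the second set would be unusual. All values of either set lay far below the Avicel mean.

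The study pairs *gh3-6* with *bglB* as its ortholog and with *bglI* as a paralog, and these differed from each other in *A. nidulans*. For *bglB* the reads of every library were recovered as a single set. On Avicel its libraries had 376, 421 and 318 normalized counts (389, 433 and 257 reads), and on no carbon 432, 345 and 464 (470, 359 and 481 reads). The groups overlapped, and the means of 372 ± 51.4 and 414 ± 61.9 (SD, n = 3) did not differ beyond the spread (two-sided exact permutation test, p = 0.4, where 0.1 is the smallest p that 3 against 3 libraries allow). The mean of log2 values was lower on Avicel by an amount within 1 SE, at -0.15 with an SE of 0.17. That SE leaves room for a modest change in either direction.

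*bglI* had an authors' mean of 374 on no carbon and 11888 on Avicel (31.8-fold, log2 fold 4.99). On no carbon its libraries had 322, 353 and 446 normalized counts, the single set of whole reads that gives the mean, with an SD of 64.7 (n = 3). The Avicel mean could not be taken apart and lay far above each of these. Between no carbon and Avicel *bglI* moved from percentile 31.3 to 92.9 of the table and *bglB* from 32.6 to 30.2. The log2 fold of *gh3-6* exceeded that of *bglB* by 7.49 and that of *bglI* by 2.34. The study looked for paralogs by sequence, starting from genes induced in these libraries that had no clear ortholog. That *bglI* lies closer in fold to *gh3-6* is thus no independent evidence. For a few genes the study also chose an induced homolog as the ortholog over a listed one with very low expression. Whether any ortholog pair here was chosen in that way was not examined.

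**Figure D2:**
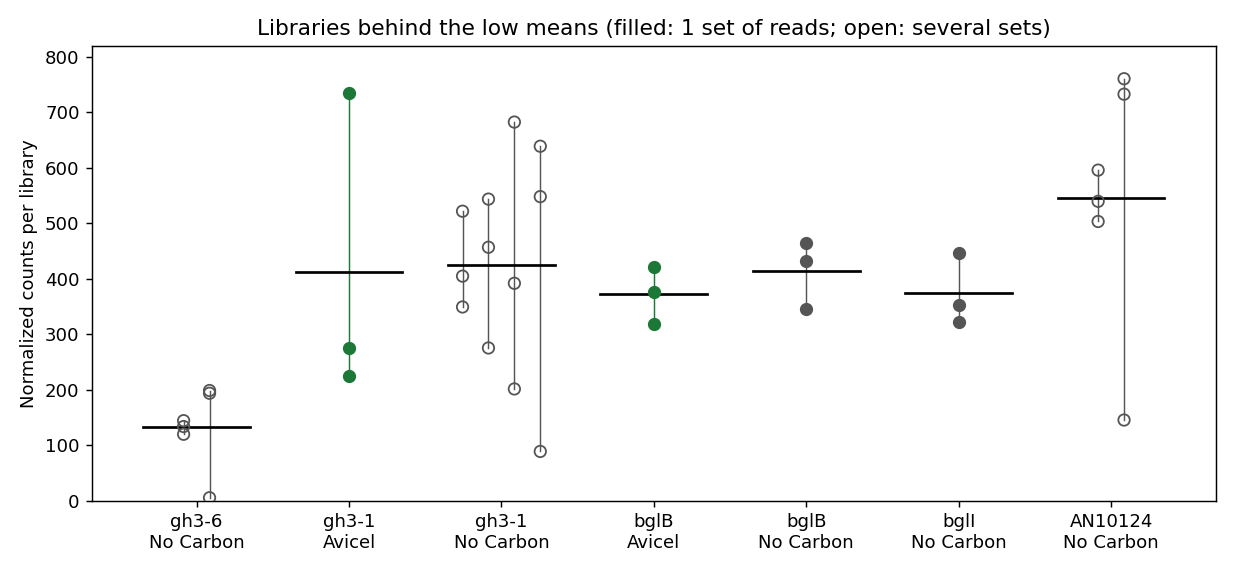
Normalized counts in single libraries (vertical axis) behind the group means under 1000 normalized counts, for 5 member genes. Filled points are means with a single set of whole reads and open points those with several, each set in a column of its own; the black bar is the authors' mean. For *bglB* the Avicel libraries (318 to 421) overlap the no carbon libraries (345 to 464), and for *gh3-1* on Avicel library 3 stands at 735 above 276 and 224.

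*gh3-1* was the *N. crassa* member with nearly the same mean in both groups, 425 on no carbon and 412 on Avicel. Its log2 fold was -0.05, or -0.50 with equal sums and -0.03 when recentred on the median. Its 3 Avicel libraries had 276, 224 and 735 normalized counts (264, 198 and 124 reads), and the highest was the shallow library 3. The no carbon mean allowed 4 sets of whole reads, in which single libraries ran from 349 to 522 in the narrowest set and from 88.6 to 639 in the widest. Under each of the 4 sets the groups overlapped and the two-sided exact permutation test gave p = 1, with 0.1 as the smallest possible. Without library 3 the Avicel mean was 250.0 and the log2 fold -0.77, an alternative chosen after the data were seen. The near-equal means of *gh3-1* depend on that library, and under some sets on single no carbon libraries as well. Leaving out 1 no carbon library gave log2 folds from -0.53 to 0.47 over the 4 sets. The difference of mean log2 values had an SE of 0.56 to 1.06 over these sets, which leaves room for a change in either direction. Leaving out library 1 or 2 on Avicel gave 0.17 or 0.25.

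**Figure D3:**
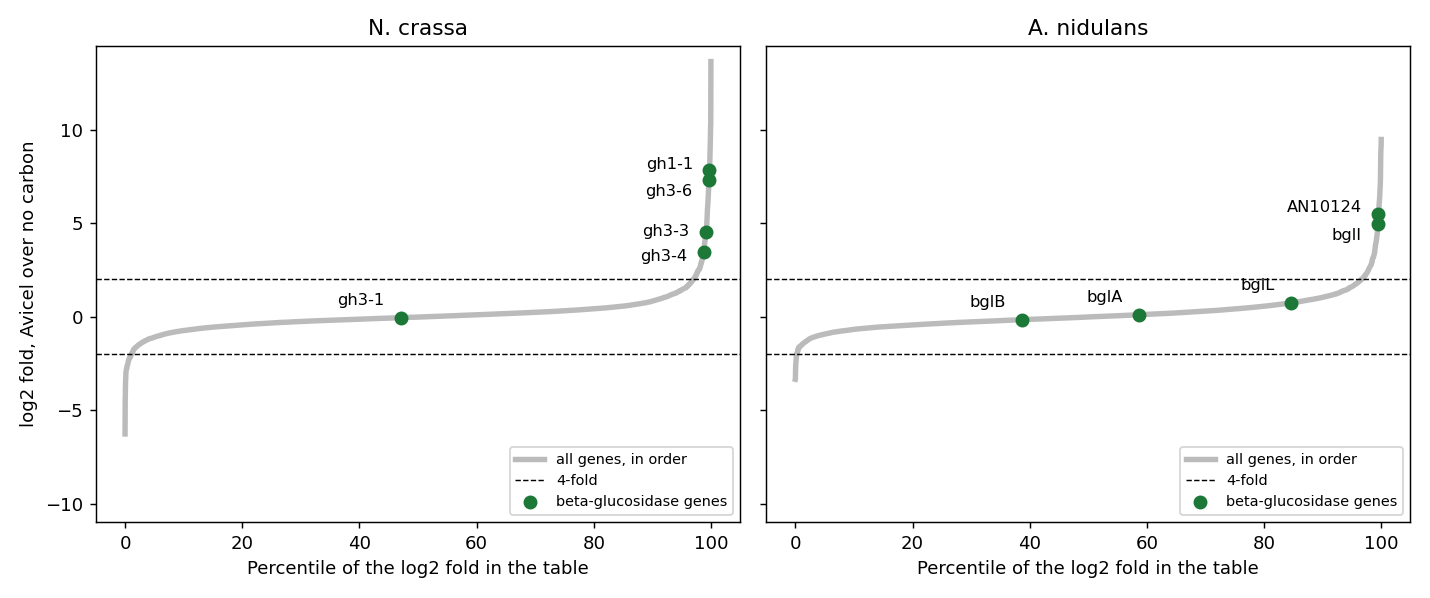
Log2 fold of Avicel over no carbon (vertical axis) against its percentile in the table (horizontal axis), for all genes with both means above 0 (grey line) and the β-glucosidase genes (green), in *N. crassa* on the left and *A. nidulans* on the right; dashed lines mark 4-fold. The 4 *N. crassa* genes past 4-fold lie at percentiles 98.8 to 99.7, AN10124 and *bglI* at 99.5 and 99.4, and *bglL*, *bglA* and *bglB* at 84.6, 58.7 and 38.6.

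A feature the choice of genes did not use was the predicted location of the protein, which the study's lists give for 9 of the 10. The 4 genes with a predicted secretion signal had log2 folds of 0.11 to 4.54. For the 5 without one they were -0.15 to 7.83. Within each species the 2 largest folds belonged to genes without the signal, *gh1-1* and *gh3-6* in *N. crassa* and AN10124 and *bglI* in *A. nidulans*. *bglB*, also without it, was the exception. Since the study annotates *gh3-6* as periplasmic, the lack of a predicted signal does not place its protein inside the cell. On no carbon, genes with the signal stood at percentiles 52.4 to 99.8 and those without it at 20.0 to 65.9, not corrected for length. Whether the starting level plays a part was not tested. With so few genes, and with orthologs in both groups, this is a description.

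Summed over the 5 members, the authors' means were 63.8-fold higher on Avicel in *N. crassa*, whereas the ratio was 1.85 for *A. nidulans*. Longer transcripts weigh more in these sums. Without *gh1-1* the *N. crassa* ratio was 22.3, and without *bglL* the *A. nidulans* ratio was 3.24. The members took up 0.0318% of all normalized counts on no carbon and 1.48% on Avicel in *N. crassa*. The corresponding *A. nidulans* shares were 0.337% and 0.567%. In *N. crassa* the share on Avicel was 0.496% when the 10 highest genes of either group, *gh1-1* among them, were left out.

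The other GH1 and GH3 genes known from the gene symbols and the study's lists were 4 in each species. In *N. crassa* 2 of the 4 were at least 4-fold higher on Avicel, where 3.00% of all genes lay. Both are annotated as β-xylosidases, enzymes that release xylose from xylan fragments. The largest log2 fold among the 4 was 4.44 for *gh3-8* (NCU00709) and the smallest -0.09 for *gh3-2* (NCU08054). In *A. nidulans* all 4 were past the limit (3.38% of all genes), from 2.48 for *bxlC* (AN2217) to 7.04 for *bxlB* (AN8401). Among them was *bglH* (AN3903), annotated as a β-glucosidase, with a log2 fold of 3.05. It is not a member here, so the *A. nidulans* member count and median given above do not include it. The *A. nidulans* genes entered the study's lists through induction in these libraries, so their count is no independent evidence. These lists had median log2 folds of 2.59 (*N. crassa*) and 3.11 (*A. nidulans*).

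A second list followed cellulose to glucose phosphate, with 12 genes per species for cellobiohydrolases, endoglucanases, cellobiose dehydrogenase, cellodextrin transporters, hexokinase and glucokinase, and the regulators of the *clr* group. In *N. crassa* 10 of 12 were at least 4-fold higher on Avicel (3.00% of all genes) and in *A. nidulans* 8 of 12 (3.38%). None was 4-fold lower. The medians of the log2 folds were 6.91 and 6.66, above those of the β-glucosidase genes in both species. The list was chosen with earlier results known and includes genes that the study reports as induced on Avicel. Its counts and medians are therefore no independent evidence. The largest log2 fold was that of the endoglucanase gene *gh5-1* (NCU00762) in *N. crassa*, at 11.90, and that of the cellobiose dehydrogenase gene AN7230 in *A. nidulans*, at 9.01. The smallest belonged to the hexokinase genes, -0.23 for NCU02542 and -0.37 for AN7459. Hexokinases phosphorylate the glucose that β-glucosidases release.

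**Figure D4:**
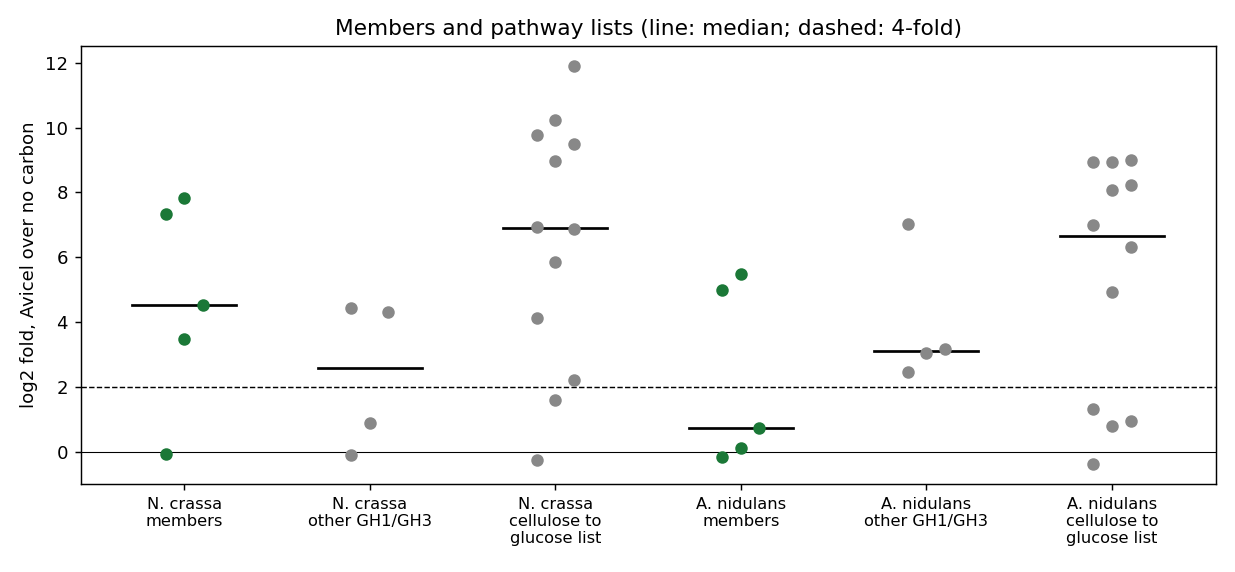
Log2 fold of Avicel over no carbon (vertical axis) for each β-glucosidase gene (green) and for the genes of the other lists (grey), by species; black bars are medians and the dashed line marks 4-fold. Medians of the β-glucosidase genes are 4.54 in *N. crassa* and 0.74 in *A. nidulans*, those of the cellulose to glucose list 6.91 and 6.66.

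The genes most like the leading member were sought by the distance between the pairs of log2 means, over 2 conditions. For *gh1-1* they were the xylanase genes *gh10-2* (NCU08189) and *gh11-2* (NCU07225) and the cellodextrin transporter gene *cdt-2* (NCU08114), at distances of 0.66, 1.05 and 1.25. For AN10124 they were AN7805 (*stcV*), AN7824 (*stcB*) and AN7809, at 0.32, 0.43 and 0.43, of which the study annotates *stcV* and *stcB* as members of the sterigmatocystin cluster. With 2 conditions, and with means not corrected for length, such likeness means only similar normalized counts in both. Along the chromosomes, 8 of the 10 immediate neighbours of the *N. crassa* members in the RefSeq annotation (assembly NC12) were in the table. The neighbour NCU08756, beside *gh3-3*, was the exception among them in being past 4-fold, where 3.00% of all *N. crassa* genes lay. Its means were 118 on no carbon and 1690 on Avicel (log2 fold 3.84). The log2 folds of the others ran from -1.51 to 1.03.

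The labelled tissue was hyphae, and the gene of the hyphal septal plug protein was high and near level in both species (*hex-1*, log2 fold 0.10, and *hexA*, 0.04). Genes of asexual sporulation were measured as well. All 3 in *N. crassa* had lower means on Avicel, with log2 folds of -1.61 (*con-6*), -1.90 (*con-10*) and -2.15 (*eas*). In *A. nidulans* 3 of 4 did, *brlA* with -0.79, *rodA* with -1.14 and *yA* with -1.40, while *wA* had 0.51. None of these genes was near 0 in either condition. Their part in the β-glucosidase values was not tested, and in bulk RNA fewer cells of a kind and less RNA per cell cannot be told apart.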

How the data were processed

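Per the methods, the authors mapped reads with TopHat 2.0.4 to predicted transcripts, tallied those on unique exons with HTSeq and used DESeq. Versions of HTSeq and DESeq are not given in the sources used here. The signal deposited by the authors is, for each gene, the mean over 3 libraries of counts divided by size factors, with 1 table per species. The tables' further columns hold the authors' own fold changes, p-values and adjusted p-values for Avicel against no carbon, and none of these was used. Averaging 3 libraries with equal weight lets a shallow library count as much as a deep one.

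Folds were ratios of the group means with no pseudocount, over genes with both means above 0. Because the tables hold group means, no count test across genes could be fitted. Means are given to 10 significant digits, so the worth of 1 read in each library was obtained from the lowest means and refined by least squares. All sets of whole reads giving a mean were then enumerated for members below 1000 and for genes between 50 and 100, with 0.5 added before logarithms of the latter. A library of a group could not be matched to a replicate number. Tested on simulated data, 200 of 200 means between 50 and 100 per group gave back the right reads, and for 60 of 60 between 100 and 600 the right reads were among the sets found. Counting errors cover counting only. Library values were compared by exact permutation (scipy 1.17.1, Python 3.11.15, numpy 2.4.6, pandas 2.3.3; figures with matplotlib 3.10.9).

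Named were all 10 members, the 3 nearest genes to the leading member of each species, and every hyphal and sporulation marker. From the list of other GH1 and GH3 genes and from the cellulose to glucose list, the largest and smallest fold were named. NCU08756 and *bglH* were named after their values were seen. Members and lists were chosen with earlier results of these data known. *N. crassa* symbols are from RefSeq and *A. nidulans* names from the study's lists. RefSeq product names were not used here, and neither were protein or promoter sequences.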

Additional observations from a re-analysis of the deposited data

How the results depend on the processing

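No paired analysis was possible because the tables hold group means and the recovered libraries carry no replicate number. A replicate block and a second count test were not run for the same reason. Each library was left out in turn where the reads of a mean had been recovered, under every set of reads, an alternative added after the data were seen. The log2 fold then ran from -0.27 to -0.05 for *bglB*, from 4.90 to 5.14 for *bglI*, from 5.05 to 5.81 for AN10124, from 6.77 to 7.75 for *gh3-6* and from -0.77 to 0.47 for *gh3-1*. No other mean could be treated this way. Member folds, summed folds and differences between folds were held against the SD between libraries, and counts and shares against a factor of 1.5. Of 103 alternatives, 88 left the value within these limits, 15 moved it and 0 reversed a gene past 4-fold. The number of members past the limit stayed at 4 and 2 with 1 or 10 normalized counts added, equal sums, recentring on the median, and limits of 2 and 8. Equal sums lowered every *N. crassa* log2 fold by 0.45, to 7.38 for *gh1-1*, 6.88 for *gh3-6*, 4.09 for *gh3-3*, 3.03 for *gh3-4* and -0.50 for *gh3-1*. The share of the *N. crassa* members on Avicel became 0.496% without the 10 highest genes. Summed log2 folds of 6.00 and 0.89 became 4.48 without *gh1-1* and 1.70 without *bglL*. Genes with high means had no replicate error, and 3 libraries per group could not give a p below 0.1.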
